A study of Homo sapiens with 6 samples.

Results

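The transcripts described here are those of tissue factor, its inhibitors and the plasminogen activator system: F3, TFPI, TFPI2, THBD, PLAU, PLAUR, PLAT, SERPINE2 and ANXA2. They were chosen by gene symbol, which took 9 of the 18852 genes annotated on the arrays and 16 of the 48803 probes, and 8 of the 9 genes passed the filter on dim probes. RNA came from ES-2, a human cell line of ovarian clear cell carcinoma, and was read on Illumina bead arrays. The treated group held 3 arrays of cells transfected with a hairpin that blocks miR-182, a microRNA, at a final 50 nM. The control group held 3 arrays of cells that received a negative control inhibitor, based on a worm microRNA, at a dose that the labels do not give. The cells treated with reagent alone or with a mimic control, which the protocol also names, are not analysed here. All 6 RNA samples were taken 48 h after transfection, so the transfection itself is shared by both groups. The study asks which transcripts differ once miR-182, reported by its design text as over-expressed in clear cell cultures, is inhibited.

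Tissue factor, the product of F3, is the membrane receptor that starts the extrinsic clotting cascade when it binds factor VII. TFPI blocks that complex and factor Xa, its relative TFPI2 is a broader inhibitor that includes plasmin among its targets, and thrombomodulin, the product of THBD, turns thrombin towards activating protein C. Urokinase (PLAU), bound to its receptor (PLAUR), and tissue plasminogen activator (PLAT) cut plasminogen to plasmin, which dissolves fibrin and matrix. The serpin SERPINE2 inhibits thrombin and both activators, and annexin A2 (ANXA2) binds plasminogen and PLAT at the cell surface. Clear cell carcinoma of the ovary is known for frequent venous thrombosis and for high tissue factor.

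The inhibitor is directed at miR-182, whose mature strands are printed because they define the perturbation. Both are RefSeq sequences of the GRCh38.p14 assembly, from the minus strand of chromosome 7, and the capitals mark the seed, bases 2 to 8, that pairs with target transcripts.
hsa-miR-182-5p: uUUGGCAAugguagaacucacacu
hsa-miR-182-3p: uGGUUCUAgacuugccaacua
The seeds differ between the strands, and a transcript site paired with the seed of the 5p strand would read TTGCCAA. The arrays held 0 probes named for MIR182, so these data do not show how far it was inhibited.

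A probe counted as detected on an array where its detection p, the deposited measure of brightness above background probes, was under 0.05. Between 41.7% and 46.0% of probes were detected per array, and a median of 40 to 41 beads lay behind each probe's value. Values are log2 intensities after background correction and quantile normalization. Groups were compared with limma over the 12087 detected genes, with Benjamini-Hochberg adjustment. The labels call the arrays biological replicates without saying that they came from separate cultures, so p-values measure only the spread between these arrays. A bulk array cannot tell fewer cells of a type from less RNA per cell. The markers set for clear cell carcinoma were only partly present: ARID1A, SPP1 and ANXA4 were detected on 6 of 6 arrays, and NAPSA and GPX3 on 0. Of the epithelial markers KRT8, KRT18 and MUC1 were detected on all 6 arrays, and KRT19 and CDH1 on 0. In the lists for other cell types, 4 of 8 endothelial, 6 of 8 white blood cell, 5 of 7 fibroblast, 1 of 5 platelet and 3 of 4 mesothelial genes passed the detection filter. Detected on 0 arrays were the defining genes VWF and CLDN5 (endothelial), PTPRC and TYROBP (white blood cells), COL1A2 and LUM (fibroblasts), PF4, GP9 and ITGA2B (platelets) and MSLN (mesothelium). Others of the same lists were detected on all 6, among them CDH5 and TIE1, CD68 and ITGB2, COL1A1, PDGFRA and THY1, GP1BA, and WT1, UPK3B and CALB2. No marker gene passed the test between the groups.

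No gene of the system passed the test. Of 8 tested, 0 were higher and 0 lower with the inhibitor at an adjusted p under 0.05, and over all 12087 genes limma also called 0 (0.0%). F3 had the widest difference, 1.20-fold, and the smallest p of the 8. At an unadjusted p under 0.05 there was 1 member, F3, where 7.65% of all genes tested met that rule, 3.5% in the direction of F3. With every probe tested on its own it was again 1 of 15, beside 6.91% of all probes. The median difference of the 8 genes was 0.026 log2 units and their median absolute difference 0.048, beside 1.49e-05 and 0.065 over all genes tested. The members' median turned to −0.023 when arrays were not normalized to each other and to −0.047 under median scaling, where that of all genes was −0.014 and −0.037. In 3 of the 8 genes, F3, PLAT and PLAUR, the values of the groups did not overlap, and in 13% of all genes tested they did not. F3 lay above its controls, as did 6.8% of all genes, and PLAT and PLAUR lay below theirs, as did 6.23%. By probe, 4 of 15 did not overlap, beside 12.4% of all probes tested. In the deposited intensities, without normalization of the arrays to each other and under median scaling, F3 alone of the 8 genes kept its groups apart. The share of all genes was not counted on those scales, so this does not set F3 apart from other genes.

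**Figure D1:**
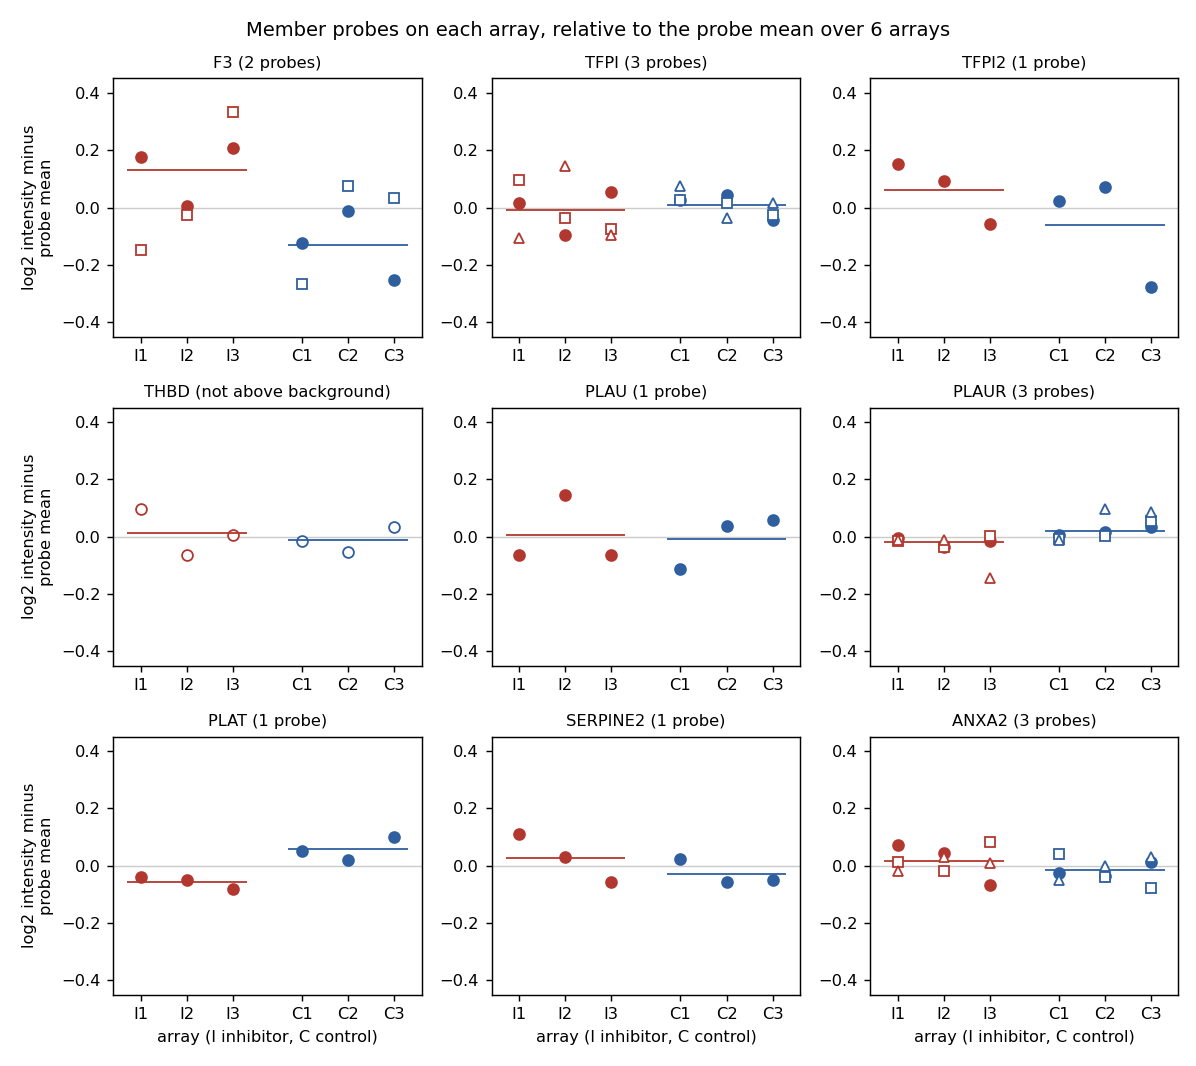
Log2 intensity of each probe on each array, minus that probe's mean over the 6 arrays, for the 9 genes (red, inhibitor arrays I1 to I3; blue, control arrays C1 to C3). Filled circles are the brightest probe of a gene, open squares and triangles its other probes, open circles the undetected THBD probe, and horizontal lines the group means of the brightest probe. F3, PLAT and PLAUR have brightest-probe values that do not overlap between groups, and the open squares of F3 do overlap.

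F3, the initiator, gave a dim signal. On its brighter probe (ILMN_2129572) the log2 values were 6.52, 6.35 and 6.55 with the inhibitor and 6.22, 6.33 and 6.09 in the control. All 3 inhibitor values lay above all 3 control values, but inhibitor replicate 2 and control replicate 2 were only 0.02 apart at this rounding (6.35 against 6.33). The group means were 6.47 ± 0.11 and 6.21 ± 0.12 (SD, n = 3 each), a log2 difference of 0.26 ± 0.08 (SE), with a 95% interval of 0.07 to 0.45, or 1.05- to 1.37-fold. Its adjusted p in limma was 0.590, and 267 of the 12087 genes had a smaller unadjusted p. The spread of the beads alone put an error of 0.070 on this difference.

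The deposited intensities of the same probe, before any normalization, were 111.9, 118.0 and 117.5 with the inhibitor and 105.6, 106.8 and 85.6 in the control. They too did not overlap, and they lay at 1.87 to 2.31 times the dimmest signal counted as detected on the same array. The F3 signal was therefore above background on 6 of 6 arrays, by a small margin.

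The second F3 probe (ILMN_1797009) did not show the same separation. Its log2 values were 5.36, 5.48 and 5.84 with the inhibitor and 5.24, 5.58 and 5.54 in the control. The groups overlapped, and the highest value, that of inhibitor replicate 3, stood apart from the other inhibitor arrays. The difference was 0.11 ± 0.13 (SE), with a 95% interval of −0.19 to 0.41 and an adjusted p of 0.906 over the 21349 probes tested in limma. Its signal was only 1.31 to 1.63 times the dimmest detected one, and the bead error of its difference was 0.095.

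These F3 probes were also compared by their root mean square difference. It grows with the noise of each probe, so it does not measure agreement alone. After each was centred on its own mean, the root mean square difference of the F3 probes over the 6 arrays was 0.20 log2 units, while the median over 11064 other genes detected on all arrays, each set against the brighter F3 probe, was 0.18. By that measure the genes most like F3 were FILIP1, at 0.046, OGFOD2, at 0.047, and TSC22D2, at 0.048. Their own differences were 0.26 ± 0.10, 0.23 ± 0.09 and 0.19 ± 0.08 (SE), with adjusted p-values of 0.615, 0.602 and 0.619 in limma. They were picked for following F3 over the 6 arrays, so differences near its own came with the choice. FILIP1, at log2 values of 4.70 to 5.21, and OGFOD2, at 4.64 to 5.12, were dimmer than the second F3 probe. None of the 3 passed the test. Among the other members the nearest to F3 was TFPI2, in place 1341, and the farthest was PLAT, in place 8362. Such a place also depends on the noise of the gene, so it does not rank shared patterns alone.

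**Figure D2:**
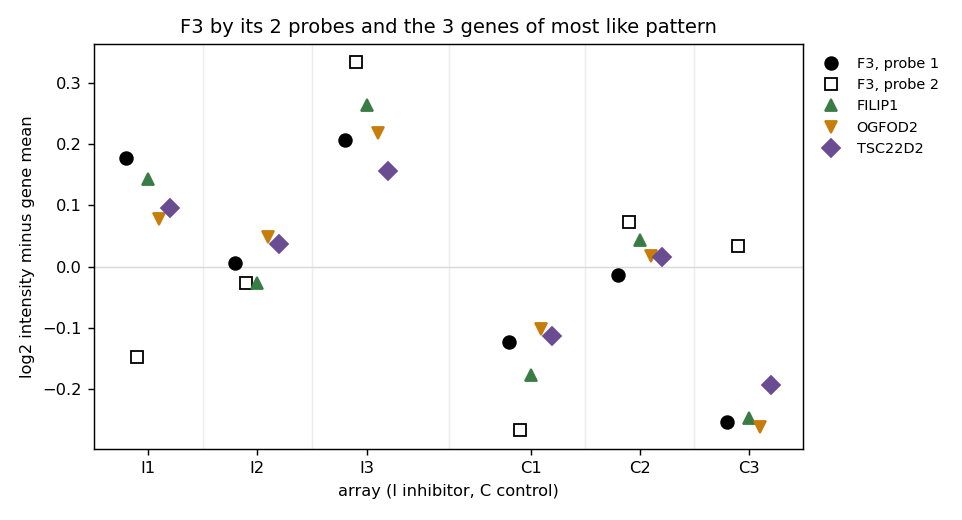
Log2 intensity minus the gene's or probe's mean over the 6 arrays (I1 to I3, inhibitor; C1 to C3, control) for the 2 probes of F3 and the 3 genes with the smallest root mean square difference from its brighter probe. FILIP1, OGFOD2 and TSC22D2 follow the filled circles of F3 within 0.046 to 0.048 on average, and the open squares of the second F3 probe depart from them by 0.20.

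TFPI, the direct inhibitor of the tissue factor complex, differed little on any of its 3 probes. The brightest probe (ILMN_1707124) read 13.15, 13.04 and 13.19 with the inhibitor and 13.16, 13.18 and 13.09 in the control. The groups overlapped throughout. The log2 difference was −0.02 ± 0.07 (SE), with an adjusted p of 0.977, and its 95% interval covered 0.887- to 1.10-fold.

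The other TFPI probes lay in the same place. The second (ILMN_1662619) gave −0.01 ± 0.07, from values between 12.53 and 12.70. The third (ILMN_1701032), annotated to a different RefSeq transcript of the gene, gave −0.04 ± 0.09, from values between 9.18 and 9.43. Both had group ranges that overlapped, and their adjusted p-values over all probes were 0.991 and 0.958 in limma. All 3 TFPI probes were well above background, at 10.8 to 202 times the dimmest detected signal.

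Because TFPI opposes F3, their log2 values were also set against each other within each array. Relative to its mean over the 6 arrays, F3 minus TFPI was 0.17, 0.10 and 0.15 with the inhibitor and −0.15, −0.06 and −0.20 in the control. The groups did not overlap, and of the difference of 0.28 the brighter F3 probe held 0.26. This pair was looked at with the F3 values known and is given as a description.

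TFPI2, a Kunitz-type inhibitor secreted into the matrix, read 9.50, 9.44 and 9.29 with the inhibitor and 9.37, 9.42 and 9.07 in the control. The groups overlapped, and control replicate 3 was the lowest array by a wide margin. The log2 difference was 0.12 ± 0.10 (SE; 95% interval −0.11 to 0.35, adjusted p = 0.805 in limma). Without control replicate 3 it was 0.014, so that array held nearly all of the difference.

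THBD, the thrombin cofactor, was not well above background. Its probe was detected on 0 of 6 arrays, with intensities of 46.0, 43.0 and 44.4 with the inhibitor and 43.5, 39.7 and 41.4 in the control. These were 0.832 to 0.907 times the dimmest signal counted as detected. No difference is given for it, and a low level of the transcript was not detectable on these arrays.

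The activator PLAU showed no separation. Urokinase transcripts read 12.20, 12.41 and 12.20 with the inhibitor and 12.15, 12.30 and 12.32 in the control, with the highest value on an inhibitor array and the lowest on a control array. The log2 difference was 0.01 ± 0.08 (SE), with an adjusted p of 0.990. Its 95% interval covered 0.886- to 1.15-fold.

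PLAT, tissue plasminogen activator, was lower on the inhibitor arrays, without passing the test. Its log2 values were 12.31, 12.30 and 12.27 with the inhibitor and 12.40, 12.37 and 12.45 in the control. Every inhibitor value lay below every control value, and the arrays of a group were close together (SD 0.020 and 0.045, n = 3 each). The difference was −0.11 ± 0.06 (SE), with a 95% interval of −0.25 to 0.03 and an adjusted p of 0.721 in limma, which draws the small spread of this gene towards that of other genes. Bead spread alone put an error of 0.035 on it.

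The separation of PLAT depended on the scaling. As deposited, its intensities were 4542.2, 5648.3 and 4769.5 with the inhibitor and 5683.8, 5484.4 and 5405.2 in the control, and inhibitor replicate 2 lay inside the control range. The groups overlapped as well when arrays were not normalized to each other, at a difference of −0.16, and under median scaling, at −0.18. They stayed apart in the authors' value table and without background correction.

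PLAUR, the urokinase receptor, was read by 3 probes, all with a lower mean on the inhibitor arrays. The brightest (ILMN_2374340) gave 11.37, 11.34 and 11.36 with the inhibitor and 11.38, 11.39 and 11.41 in the control. These groups did not overlap, but the nearest arrays were about 0.01 apart, and they overlapped on the 3 scales on which PLAT did. The difference, −0.04 ± 0.06 (SE, adjusted p = 0.905 in limma), was smaller than the bead error of 0.051. It was −0.089 when arrays were not normalized to each other and −0.11 under median scaling.

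The remaining PLAUR probes bracketed that value. The second (ILMN_2408543) gave −0.03 ± 0.07 with overlapping groups. The third (ILMN_1691508) read 9.47, 9.47 and 9.34 with the inhibitor and 9.47, 9.58 and 9.57 in the control, which left the groups apart by less than the rounding shown. Its difference was −0.12 ± 0.07 (SE), with an adjusted p of 0.796 over all probes in limma.

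SERPINE2, the serpin that inhibits thrombin and the plasminogen activators, read 10.05, 9.97 and 9.88 with the inhibitor and 9.96, 9.88 and 9.89 in the control. The ranges overlapped, with inhibitor replicate 1 the highest array. The log2 difference was 0.06 ± 0.07 (SE), with a 95% interval of −0.10 to 0.21 and an adjusted p of 0.881. Within arrays, PLAT minus SERPINE2 was −0.15, −0.08 and −0.02 with the inhibitor and 0.03, 0.07 and 0.15 in the control, relative to its mean. Of that difference of −0.17, PLAT held −0.11, and its groups did not overlap by themselves. The pair was picked with those values known and is given as a description. PLAU minus SERPINE2 overlapped between the groups.

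ANXA2, the cell surface receptor for plasminogen and PLAT, had the brightest probe of the set (ILMN_2409167), at 14.40, 14.37 and 14.26 with the inhibitor and 14.30, 14.29 and 14.34 in the control. The groups overlapped, and the difference was 0.04 ± 0.07 (SE, adjusted p = 0.918). This probe stood at 82.2% to 90.4% of the highest intensity on its array, and the files carry no saturation flag. Its other probes (ILMN_1711899 and ILMN_1755937) gave 0.05 ± 0.07 and 0.01 ± 0.07.

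ANXA2 has near-identical pseudogene copies, so its probes may bind more than 1 transcript. All 3 probes named for ANXA2P1 or ANXA2P3 were detected on 6 of 6 arrays. Both ANXA2P1 probes, at 0.19 ± 0.15 and 0.17 ± 0.11 (SE), were lowest on control replicate 3, at 10.03 and 11.98, and no ANXA2P probe passed the test. The direction of ANXA2 itself turned when arrays were not normalized to each other (−0.011) and under median scaling (−0.034), where the median of all genes tested was −0.014 and −0.037.

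**Figure D3:**
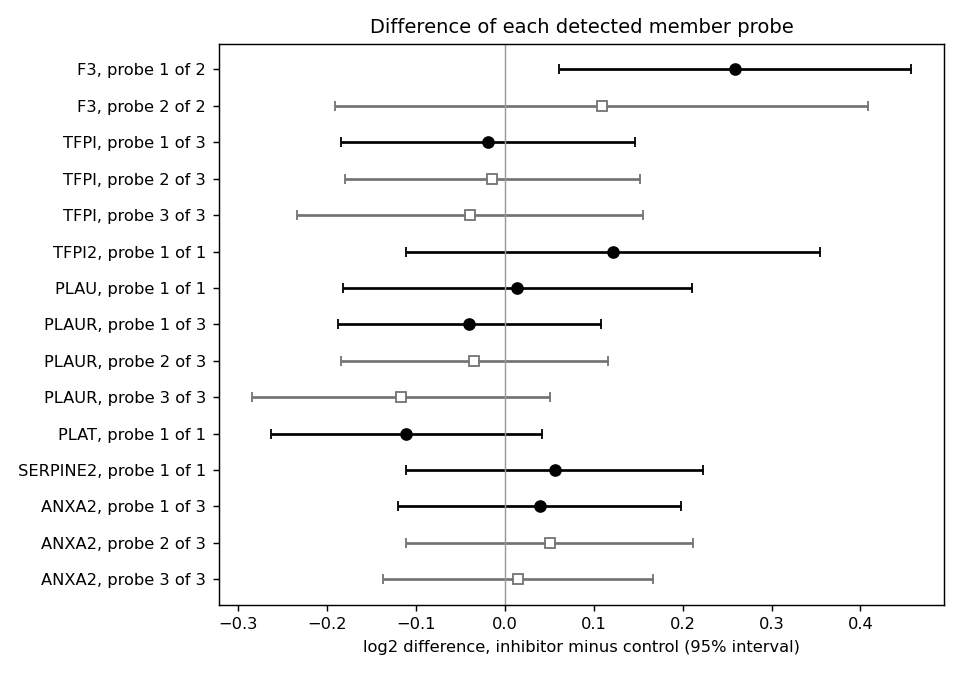
Log2 difference, inhibitor minus control, of the 15 detected probes with its 95% interval, from limma fitted on all 21349 detected probes (filled circles, brightest probe of a gene; open squares, its other probes). The interval of the brighter F3 probe is the only one of the 15 that does not reach 0, and its adjusted p over all probes was 0.668.

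Across arrays the members did not move as a block. Of the 15 detected probes, inhibitor replicate 3 was the highest array for 4 and the lowest for 5, and control replicate 3 was the highest for 3 and the lowest for 3. F3, TFPI2 and the second ANXA2 probe were lowest on control replicate 3, while PLAT and 2 PLAUR probes were highest there. Inhibitor replicate 1 was the highest for 4 and the lowest for 1, and control replicate 1 was the highest for none and the lowest for 3. No array was the highest or the lowest for more than 5 of the 15.

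The partners of these proteins were read from 3 lists of 54 genes, of which 35 were tested. None passed the test in either direction (0 higher and 0 lower, beside 0.0% of all genes tested), and 2 of the 35 had an unadjusted p under 0.05, beside 7.65% of all genes. The median difference of the 35 was 0.0086. Of the coagulation factors, cofactors and thrombin receptors, 13 of 22 were tested, 6 above and 7 below 0. Of the plasminogen inhibitors, receptors and clearance receptors, 5 of 15 were tested, 4 above and 1 below 0, and their median of 0.015 turned to −0.042 and −0.065 under the 2 scalings that turned the members' median. PLG, the gene of plasminogen itself, was not detected on any array. The groups did not overlap in 4 of the 13 coagulation genes tested (F7, F12, GAS6 and SERPIND1) and in 1 of the 5 plasminogen genes. In the list of transcription factors it was 1 of 17, and 13% of all genes tested met that rule.

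Among the coagulation genes, the smallest p belonged to F7, which encodes the ligand of tissue factor. F7 read 4.57, 4.67 and 4.57 with the inhibitor and 4.72, 4.93 and 4.83 in the control, a difference of −0.22 ± 0.07 (SE, adjusted p = 0.602 in limma). The groups did not overlap, but the probe was detected on only 2 of the 3 inhibitor arrays, close to background. F12, the zymogen of the contact pathway, differed by −0.16 ± 0.08 (adjusted p = 0.681), and GAS6, a vitamin K-dependent ligand of TAM receptors, by −0.13 ± 0.07 (adjusted p = 0.705). The thrombin receptor F2R was detected on all arrays and differed by 0.03 ± 0.06.

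Among the plasminogen genes, SERPINI1, a neuronal serpin that inhibits PLAT, read 6.16, 6.08 and 6.26 with the inhibitor and 6.02, 5.98 and 5.88 in the control. These groups did not overlap, and the difference was 0.21 ± 0.07 (SE, adjusted p = 0.602 in limma). VLDLR, an endocytic receptor that clears serpin complexes, differed by −0.08 ± 0.07, and the plasminogen receptor PLGRKT by 0.02 ± 0.06. S100A10, which forms a complex with annexin A2, differed by 0.01 ± 0.08.

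**Figure D4:**
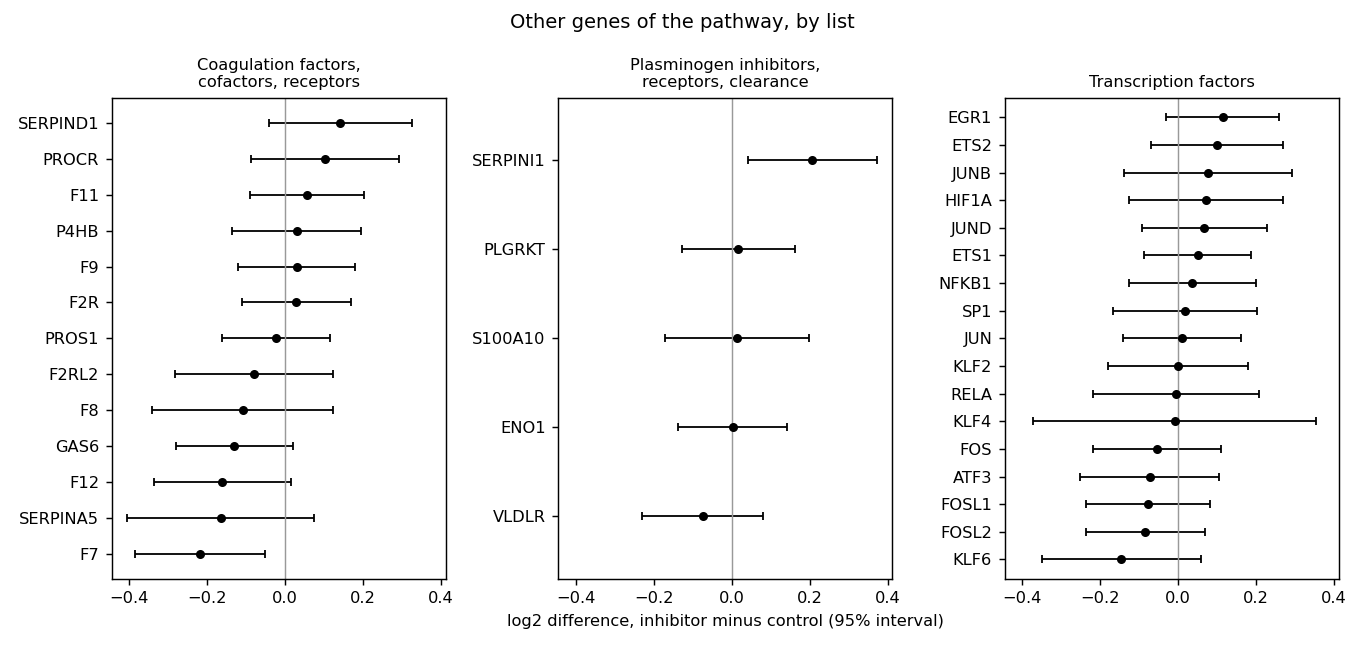
Log2 difference, inhibitor minus control, with its 95% interval for the 35 tested genes of the 3 lists (points, estimate; bars, interval). The intervals of F7 and SERPINI1 do not reach 0, at −0.22 and 0.21, and neither gene passed the adjusted test.

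Transcription factors reported to act on the promoters of F3, PLAU or THBD formed the last list. All 17 were tested, 9 above and 8 below 0, with a median of 0.0086. EGR1, an immediate early zinc finger factor, read 9.46, 9.37 and 9.45 with the inhibitor and 9.32, 9.26 and 9.36 in the control, a difference of 0.11 ± 0.06 (SE, adjusted p = 0.726 in limma). The EGR1 groups did not overlap, by about 0.01. KLF6 differed by −0.15 ± 0.09 and ETS2 by 0.10 ± 0.07, values that were −0.060 and 0.036 without inhibitor replicate 3, and the AP-1 subunits JUN and FOSL1 by 0.01 ± 0.07 and −0.08 ± 0.07.

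The promoter of F3 is printed because F3 had the widest difference of the set and because AP-1, NF-kappaB, Sp1 and EGR1 are known to act there. The 250 bases before its annotated start (GRCh38.p14, chr1:94541760-94542009, minus strand, from RefSeq) were searched on both strands for the AP-1 letters TGAGTCA, the kappaB letters GGAGTTTCC and the GC box GGGCGG. Capitals mark the matches, which do not overlap each other.
F3: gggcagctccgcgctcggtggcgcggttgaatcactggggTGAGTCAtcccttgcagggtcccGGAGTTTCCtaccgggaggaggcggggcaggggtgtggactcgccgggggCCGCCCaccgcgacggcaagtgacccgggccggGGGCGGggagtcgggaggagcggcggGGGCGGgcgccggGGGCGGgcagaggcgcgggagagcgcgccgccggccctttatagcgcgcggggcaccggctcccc
The AP-1 letters begin 210 bases before the start, the kappaB letters 187 bases before it, and the 4 GC boxes 137, 104, 78 and 65 bases before it. Among all 35116 promoters of the table, 4.20% held the AP-1 letters in the same window, 0.424% the kappaB letters and 42.6% the GC box. No other form of a kappaB site was searched, so that share does not count kappaB sites in general and does not set F3 apart.

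Of the 9 members, 7 had a promoter in the table, and THBD and PLAT had none. The AP-1 letters also occurred upstream of PLAUR and ANXA2, so 3 members carried them. They are set side by side to show the shared heptamer, in capitals, with its flanks, all on the minus strand of GRCh38.p14.
F3 (chr1:94541948-94541984): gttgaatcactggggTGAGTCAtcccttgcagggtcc
PLAUR (chr19:43670334-43670370): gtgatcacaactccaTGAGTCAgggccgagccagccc
ANXA2 (chr15:60398092-60398128): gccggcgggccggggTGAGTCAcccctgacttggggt
None of the 3 genes passed the test, at differences of 0.26 ± 0.08 for F3, −0.04 ± 0.06 for PLAUR and 0.04 ± 0.07 (SE) for ANXA2. A match of letters is not a bound site, and no binding was measured here.

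**Figure D5:**
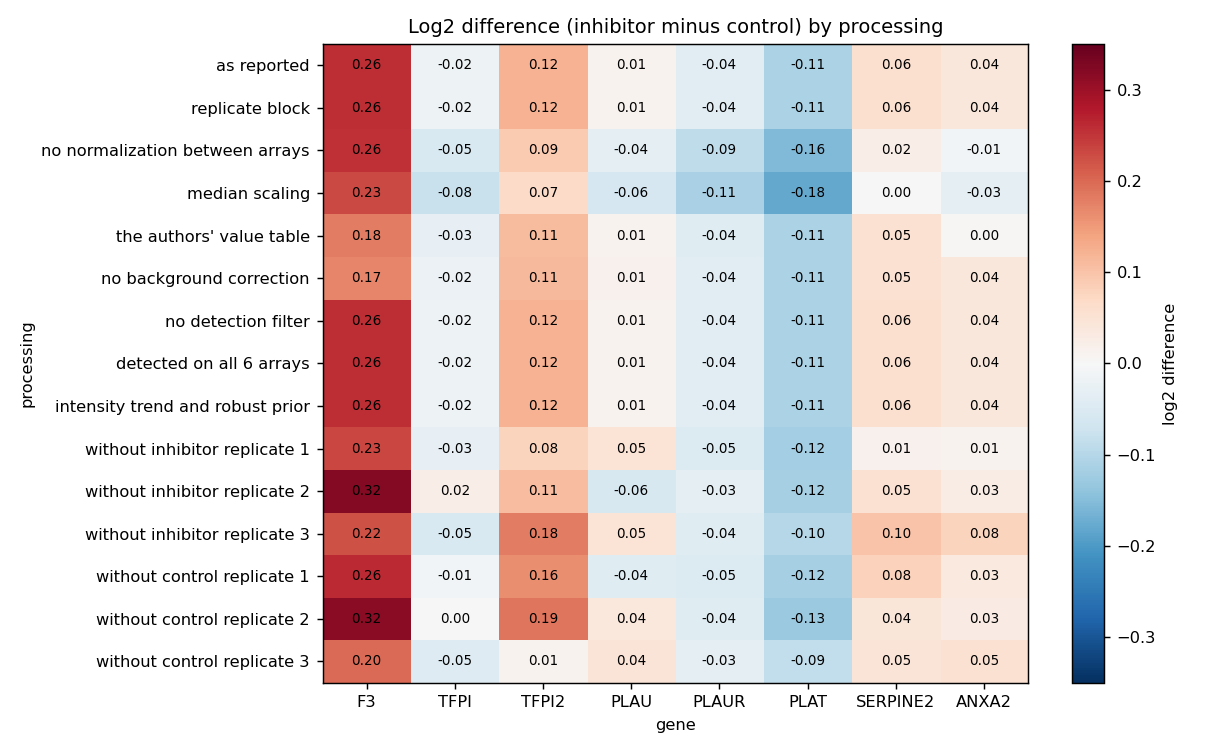
Log2 difference, inhibitor minus control, of the 8 tested genes (columns) as reported and under 14 other ways of processing (lines), including each array left out. Cells give the difference and colour its sign and size. F3 stayed between 0.17 and 0.32 and PLAT between −0.18 and −0.087, and PLAU, TFPI and ANXA2 changed sign in some cells.

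F3 kept its sign in all 14 alternatives of the plot by processing, as did TFPI2, PLAUR, PLAT and SERPINE2. Several of these could not turn a sign, since the replicate block, the detection rules and the other prior left each estimate unchanged. Nor could dropping a single array turn F3, PLAT or PLAUR, whose groups did not overlap. The groups of the brighter F3 probe also stayed apart on each of the other 5 scales examined, including the deposited intensities. As a ratio to the dimmest detected signal of each array, those intensities overlapped between the groups. The 5 scales are of the same arrays and do not repeat the experiment. The share of all genes was not counted on them, so they do not set F3 apart from other genes. The second F3 probe had overlapping groups on every scale. The lowest adjusted p that F3 reached was 0.496.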

How the data were processed

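The deposited scanner output holds, per the file headers, linear intensity averaged over the beads of a probe, with their standard deviation and number. Detection was deposited by the authors as a fraction, and 1 minus that fraction served as the detection p. BeadStudio is named in the submitters' processing notes, without a version, and no genome build is given in the sources used here. The deposited value table holds intensities that the authors put on a common distribution by a method not given in the sources used here. Its scale is linear, neither centred nor a ratio, and each column has a median of 47.2.

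Samples were grouped by their descriptions, which speak of an inhibitor where the design text speaks of a mimic. The scanner files and the annotation carry different probe names, and all 48803 probes were paired through their ranks on the 6 arrays, a signature unique to each. GEO's platform annotation named 28098 probes with 1 gene, 13 with several and 20692 with none, and 0 symbols needed an update against RefSeq. Intensities were corrected and quantile normalized with neqc (offset 16) of limma 3.58.1 in R 4.3.3 and taken to log2. Probes detected on at least 3 of 6 arrays entered (21349), and the probe of highest mean stood for its gene, leaving 12087 genes. The test was lmFit with eBayes (2-sided, no replicate block), and differences are inhibitor minus control. The fit was tested on simulated data. The sources used here name neither slides nor scan dates, so no batch could be tested, and 3 arrays a group limit the precision.

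The rule for named genes took all 9 members, the 3 genes of each list with the smallest p where none passed, and the 3 genes most like F3. F2R, S100A10, JUN and FOSL1, the ANXA2 pseudogenes and the pairs set against each other within arrays were chosen after their values were seen. The members and lists were chosen with earlier results of these data known. Alternatives were a replicate block, other scalings, background and detection rules, another prior, every probe on its own, and each array left out.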

Additional observations from a re-analysis of the deposited data

How the results depend on the processing

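No member and no gene of the 3 lists passed the adjusted threshold under any alternative run, and every probe on its own gave 0 member calls. Over all genes, limma called 5 when arrays were not normalized to each other and 7 under median scaling, beside 0 as reported and 0 under each other alternative, and the cause was not tested. With the replicate block 0 genes were called, as without it. Same-numbered arrays had correlations of deviations of 0.020, 0.0030 and −0.0060, so no variation shared by number was visible. That does not settle whether such arrays shared a culture or a day. Of 279 recomputed differences of 20 named genes, 268 kept their direction and 11 turned. This count includes the block, the detection rules and the other prior, which left these differences unchanged and so could not turn them. Under those scalings PLAU lay at −0.035 and −0.059, and with 1 array left out it ran from −0.057 (inhibitor replicate 2) to 0.049, turning also without control replicate 1 (−0.041); ANXA2 lay at −0.011 and −0.034 under them. When single arrays were dropped, TFPI ran from −0.052 to 0.024 (inhibitor replicate 2 dropped), and under the scalings it lay at −0.055 and −0.078. PLGRKT lay at −0.030 and −0.054 under the scalings and ran from −0.016 (without control replicate 3) to 0.040 with 1 array left out, at −0.0033 without inhibitor replicate 3. With 1 array left out, F3 ran from 0.20 to 0.32, TFPI2 from 0.014 to 0.19, SERPINE2 from 0.015 to 0.10 and PLAT from −0.13 to −0.087. VLDLR was −0.030 without control replicate 3. Without background correction and in the authors' value table, F3 moved to 0.17 and 0.18, F7 to −0.087 and −0.11, FILIP1 to 0.11 and 0.13, OGFOD2 to 0.096 and 0.12, and SERPINI1 to 0.13 and 0.14. Under median scaling the medians of the coagulation and transcription factor lists moved to −0.063 and −0.033. F3's second probe, F7, FILIP1 and OGFOD2 lie close to background, which limits what these arrays can show for them.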
